A study of Mus musculus with 8 samples.

Results

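The aminoacyl-tRNA synthetases are the enzymes that join each amino acid to its own transfer RNA (tRNA). Their 34 genes measured here were chosen by gene symbol, though with earlier results of these data known. They comprise 20 genes for cytosolic enzymes and 14 for mitochondrial enzymes, out of 19919 genes that passed the filter on dim probes. RNA came from splenic T cells of OT-I mice on a C57BL6 background, purified magnetically with a pan-T-cell kit, and was hybridised to 8 single-colour Agilent arrays. OT-I mice carry a transgenic T cell receptor (TCR) for the ovalbumin peptide SIINFEKL on H-2Kb, and all 8 samples share this genotype; the age of the mice was not given in the sources used here.

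There were 7 conditions. Cells were left untreated (2 arrays), given interferon β (IFNβ) alone for 2 h or for 7 h, or stimulated for 1 h or for 6 h with streptamers that present SIINFEKL to the TCR. The remaining conditions combined 1 h of IFNβ with TCR stimulation of 1 h or of 6 h. Their sample labels do not say whether the IFNβ came before or during the TCR stimulation. Each treated condition was 1 array. A test therefore compared all arrays sharing a treatment with those lacking it, and the number of arrays limits the precision. Nothing in the labels says whether the 2 untreated arrays came from separate mice or cultures, so the spread measured may be partly technical. They were averaged and counted as 1 sample, which gave 7 samples.

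In the cytosol, an animal cell holds many of these enzymes in one large assembly, the multi-tRNA synthetase complex, while others act alone or as small oligomers. Mitochondria translate a handful of proteins of the respiratory chain on their own ribosomes and import their synthetases, most of which have nuclear genes of their own. Activated T cells are known to raise protein synthesis before they divide. Tryptophanyl-tRNA synthetase (Wars) is known besides as an interferon-inducible enzyme, and several cytosolic synthetase genes are known targets of the transcription factor ATF4, which cells induce when amino acids run short.

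Promoter sequence could be read for 26 of the 34 genes (13 cytosolic and 13 mitochondrial) from RefSeq windows of build GRCm38.p6 that run from 250 bases before to 50 after the start. Cars, Hars, Lars, Nars, Rars, Vars, Wars and Pars2 had no entry. The windows were searched on both strands for 4 short motifs: the ATF4 element TGATGNAAT, the E-box CACGTG bound by MYC-type factors, the interferon response element core AAANNGAAA, and the STAT-binding GAS TTCNNNGAA. The E-box and the GAS read the same on both strands. No motif overlapped another in the stretches printed here. The 250 bases before the start are given for 5 cytosolic genes with a match in that stretch: Aars, Gars, Iars and Farsb, whose transcripts rose after 6 h of TCR stimulation and which hold an ATF4 element or an E-box, and Qars, the cytosolic gene with the smallest difference. Capitals mark every match to any of the 4 motifs.
Aars, chr8:111033592-111033841, plus strand: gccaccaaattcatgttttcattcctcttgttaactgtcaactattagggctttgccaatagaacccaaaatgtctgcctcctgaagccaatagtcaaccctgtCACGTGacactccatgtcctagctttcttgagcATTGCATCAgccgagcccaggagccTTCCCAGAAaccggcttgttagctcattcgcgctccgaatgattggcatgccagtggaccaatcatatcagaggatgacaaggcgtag
Gars, chr6:55037751-55038000, plus strand: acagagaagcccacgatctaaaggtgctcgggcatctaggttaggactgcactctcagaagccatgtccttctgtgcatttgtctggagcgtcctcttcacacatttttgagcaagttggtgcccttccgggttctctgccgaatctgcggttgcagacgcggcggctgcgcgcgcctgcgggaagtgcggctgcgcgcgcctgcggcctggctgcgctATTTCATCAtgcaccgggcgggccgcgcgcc
Iars, chr13:49681880-49682129, plus strand: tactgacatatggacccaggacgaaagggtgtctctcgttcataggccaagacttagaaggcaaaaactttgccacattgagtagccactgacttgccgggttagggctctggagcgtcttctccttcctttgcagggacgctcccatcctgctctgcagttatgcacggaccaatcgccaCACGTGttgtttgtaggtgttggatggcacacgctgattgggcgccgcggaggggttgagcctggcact
Farsb, chr1:78488898-78489147, minus strand: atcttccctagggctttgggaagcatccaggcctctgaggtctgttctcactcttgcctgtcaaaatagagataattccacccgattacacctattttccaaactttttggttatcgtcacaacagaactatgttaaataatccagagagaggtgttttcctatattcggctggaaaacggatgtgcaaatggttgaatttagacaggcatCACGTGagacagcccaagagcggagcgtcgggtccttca
Qars, chr9:108507755-108508004, plus strand: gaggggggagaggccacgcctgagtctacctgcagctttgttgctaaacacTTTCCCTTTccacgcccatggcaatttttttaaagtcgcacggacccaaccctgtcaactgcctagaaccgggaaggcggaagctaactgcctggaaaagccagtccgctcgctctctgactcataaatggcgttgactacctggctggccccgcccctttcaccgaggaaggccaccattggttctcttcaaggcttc

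The ATF4 element was found at 3 of the 26 genes, all cytosolic, beside 1.08% of the 27025 genes with a window. It began 113 bases before the start of Aars, 31 bases before that of Gars and 6 bases after that of Iars, where the printed stretch has already ended. In each it lay on the strand opposite to the motif as written. The E-box was found at 5 of the 26 genes (Aars, Farsb, Iars, Tars and the mitochondrial Ears2), beside 8.09% of all genes. It began 146 bases before the start of Aars, 69 before that of Iars and 39 before that of Farsb, and lay after the start in Tars and Ears2. The GAS was found at Aars, Kars and Nars2, beside 9.55% of all genes. The interferon response element core was found only at Qars among the 26, where it began 199 bases before the start, beside 12.1% of all genes. Dars, Eprs, Farsa, Kars, Mars, Sars and Yars also rose after 6 h of TCR stimulation, and their windows held neither an ATF4 element nor an E-box. These matches describe letters in the windows, and binding was not measured.

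All 34 genes passed the filter, and the probe used for each was well above background on all 8 arrays. Signal was scaled within each array so that its 75th percentile stood at 1500, and the values below are this scaled signal. It is not corrected for probe, so a gene's signal is compared only with its own on other arrays. Between arrays, 26065 to 29533 of 43379 non-control spots were well above background and the 75th percentile of the unscaled signal ran from 807 to 1241. The arrays lay on 2 slides, slide 1 with both 1 h TCR arrays and slide 2 with both 6 h TCR arrays, each with 1 untreated array and 1 array of IFNβ alone. The deposited value table and the scanner files name the 2 arrays with 1 h of TCR stimulation in opposite order. The value table's naming is used. The IFNβ differences of Wars, Vars and Wars2 are also given with the scanner files' naming. Under it any contrast between these 2 arrays changes sign.

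Markers of the purified cells and of other cells were measured beside the synthetases. The 7 T cell and CD8 markers were all well above background on all 8 arrays, and 3 of them, Cd8a, Cd8b1 and Cd3g, fell after 6 h of TCR stimulation, with a list median of -0.80 on the log2 scale. Of 6 B cell markers measured, 4 fell at 6 h (median -1.80), and their summed scaled signal was 13350 and 13009 in untreated cells, 41298 and 35359 with IFNβ alone, 11372 and 10182 on the 1 h TCR arrays and 4552 and 5323 on the 6 h TCR arrays. Of 5 NK cell markers, 3 fell (median -1.47), with sums of 1429 and 1444 untreated, 2600 and 2882 with IFNβ alone, 1354 and 1139 on the 1 h TCR arrays and 1144 and 1418 on the 6 h TCR arrays. Of 6 myeloid markers 1 fell (median -0.74), with sums of 3096 and 3194 untreated, 4151 and 1736 with IFNβ for 2 h and 7 h, 3827 and 2090 on the 1 h TCR arrays and 1516 and 1808 on the 6 h TCR arrays. Of 4 erythroid markers 2 were measured and neither was called at 6 h, with sums of 1790 and 1750 untreated, 4682 and 4481 with IFNβ alone, 2180 and 2358 on the 1 h TCR arrays and 1922 and 2929 on the 6 h TCR arrays. The B cell marker Pax5 and the myeloid marker Siglech did not pass the filter. Calls set the 6 h TCR arrays against the untreated and IFNβ-alone arrays together, and 22.6% of all genes were called lower. Of markers called lower, Cd79b read 8568 and 8128 untreated and 1446 and 1354 at TCR 6 h. Ncr1, well above background on 2 arrays, read 9.38 and 12.9 untreated, 33.1 and 52.7 with IFNβ alone, and 6.01 and 11.2 at TCR 6 h. The signal of the B cell, NK cell and myeloid markers differed between conditions, and its part in the synthetase differences was not tested. In such bulk samples fewer cells of a type and less RNA per cell cannot be told apart.

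After 6 h of TCR stimulation the cytosolic synthetase transcripts rose almost as a set. Of 20 cytosolic genes 18 rose, with a median log2 difference over the 20 of 2.70, while 5 of 14 mitochondrial genes rose, 1 fell and 8 were not called, with a median of 0.55. Yars, Gars and Tars, which charge tyrosine, glycine and threonine, had the largest differences at 10.3-fold, 9.90-fold and 9.03-fold. The cytosolic genes not called were Qars, for glutamine, and Wars, for tryptophan. Differences are limma estimates over the 7 samples in an additive model with terms for IFNβ, TCR 1 h and TCR 6 h, and a gene is called at an adjusted p (Benjamini-Hochberg, all genes) under 0.05. Of all 19917 genes tested 22.2% were called higher and 22.6% lower in this comparison, and their median log2 difference was 0.05.

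**Figure D1:**
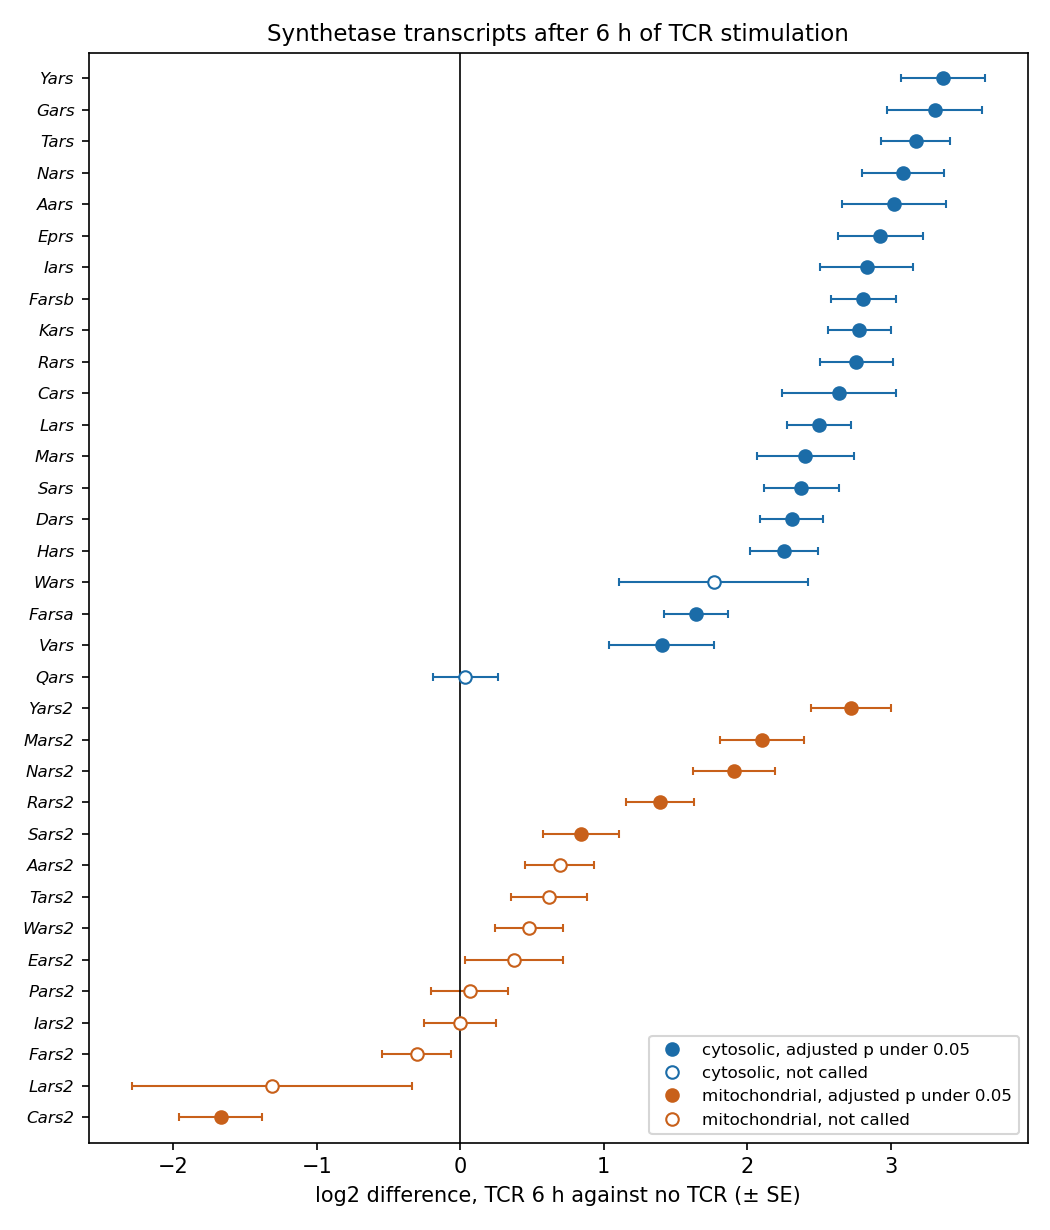
Log2 difference between 6 h of TCR stimulation and no TCR stimulation (horizontal axis, limma estimate ± SE over 7 samples) for each of the 34 synthetase genes (vertical axis), cytosolic in blue and mitochondrial in orange, filled where the adjusted p was under 0.05. Apart from Qars and Vars the cytosolic genes lie between 1.65 and 3.36, whereas the mitochondrial genes spread from -1.67 for Cars2 to 2.72 for Yars2.

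Among the 6 cytosolic genes with the largest called differences, Yars had a scaled signal of 4720 and 4868 on the untreated arrays, 3064 and 4774 with IFNβ for 2 h and 7 h, 9548 with TCR for 1 h, 6377 with IFNβ and TCR for 1 h, 43778 with TCR for 6 h and 44178 with IFNβ and TCR for 6 h. Both 6 h TCR arrays stood far above the other 6, and IFNβ made little difference between them. The log2 difference was 3.36 ± 0.29 (SE; limma adjusted p = 0.00056). The Yars probe lies at chr4:128896047-128896106 in build mm9, the build of the scanner files' headers.

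Gars and Kars each serve cytosol and mitochondria from a single gene and are counted as cytosolic here. Gars encodes glycyl-tRNA synthetase. Its signal was 3104 and 3123 untreated, 1390 and 1595 with IFNβ for 2 h and 7 h, 3035 and 2901 with TCR for 1 h without and with IFNβ, and 19495 and 20130 with TCR for 6 h without and with IFNβ. The arrays with IFNβ alone were the lowest and the 6 h TCR arrays the highest, with the 1 h TCR arrays next to the untreated arrays. The log2 difference at 6 h was 3.31 ± 0.33. Because the model sets the 6 h TCR arrays against the untreated and the IFNβ-alone arrays together, this is larger than the distance from the untreated arrays alone.

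Tars, the threonyl-tRNA synthetase gene, had a signal of 9082 and 8932 untreated, 6454 and 6956 with IFNβ for 2 h and 7 h, 19251 and 15386 with TCR for 1 h without and with IFNβ, and 65955 and 71387 with TCR for 6 h without and with IFNβ. Its 4 TCR arrays all lay above the 4 arrays without TCR stimulation, with no overlap, and the 6 h arrays lay above the 1 h arrays. The log2 difference at 6 h was 3.18 ± 0.24.

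Nars, for asparagine, and Aars, for alanine, had the same order of arrays. Nars stood at 8464 and 8820 untreated, 4890 and 6325 with IFNβ for 2 h and 7 h, 17606 and 14637 at TCR 1 h without and with IFNβ, and 53247 and 60111 at TCR 6 h without and with IFNβ, a log2 difference at 6 h of 3.09 ± 0.28. Aars stood at 6838 and 6744 untreated, 3109 and 6285 with IFNβ for 2 h and 7 h, 15505 and 11392 at TCR 1 h without and with IFNβ, and 43405 and 43362 at TCR 6 h without and with IFNβ, a log2 difference at 6 h of 3.02 ± 0.36. In both genes the 1 h TCR arrays stood between the arrays without TCR stimulation and the 6 h arrays.

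Eprs encodes the bifunctional enzyme for glutamate and proline, a core member of the multi-tRNA synthetase complex. Its signal was 7841 and 6969 untreated, 3920 and 3145 with IFNβ for 2 h and 7 h, 7229 and 5992 at TCR 1 h without and with IFNβ, and 39779 and 33798 at TCR 6 h without and with IFNβ. Only the 6 h TCR arrays exceeded both untreated arrays, and the log2 difference was 2.93 ± 0.30.

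The other called cytosolic genes lay between 1.41 and 2.83 on the log2 scale. They were Iars (isoleucine, 2.83 ± 0.33), Farsb and Farsa (the β and α subunits of the phenylalanine enzyme, 2.81 ± 0.23 and 1.65 ± 0.22), Kars (lysine, 2.78 ± 0.22), Rars (arginine, 2.76 ± 0.25), Cars (cysteine, 2.64 ± 0.40), Lars (leucine, 2.50 ± 0.22), Mars (methionine, 2.41 ± 0.34), Sars (serine, 2.38 ± 0.26), Dars (aspartate, 2.31 ± 0.22), Hars (histidine, 2.26 ± 0.24) and Vars (valine, 1.41 ± 0.37). The subunits of the phenylalanine enzyme both rose but by unequal amounts, 7.02-fold for Farsb and 3.13-fold for Farsa. The genes of the multi-tRNA synthetase complex (Eprs, Iars, Lars, Qars, Mars, Kars, Rars and Dars) ranged from 0.04 for Qars to 2.93 for Eprs, and those of enzymes outside it spanned 1.41 to 3.36, so both kinds held large differences.

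Qars and Vars had the smallest cytosolic differences. Qars, whose probe lies at chr9:108417534-108418156 (mm9), had a signal of 19404 and 19278 untreated, 21076 and 21842 with IFNβ for 2 h and 7 h, 19117 and 16810 at TCR 1 h without and with IFNβ, and 21807 and 20803 at TCR 6 h without and with IFNβ. The 8 arrays overlapped across conditions, with a log2 difference at 6 h of 0.04 ± 0.22 (limma adjusted p = 0.91), so that it was the one member of the complex that was not called. Its direction depended on the scaling: it was -0.62 with quantile normalization (adjusted p = 0.052) and -0.54 with normexp background correction and quantile normalization, where it was called lower (adjusted p = 0.020). Over its alternatives the adjusted p ran from 0.020 to 0.99.

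Mitochondrial synthetase transcripts did not move as a set. Yars2 had the largest difference, with a signal of 2649 and 2742 untreated, 2229 and 2204 with IFNβ for 2 h and 7 h, 4343 and 2661 at TCR 1 h without and with IFNβ, and 14660 and 17641 at TCR 6 h without and with IFNβ. Its log2 difference of 2.72 ± 0.28 lay close to the cytosolic median of 2.70 and below the 3.36 of its cytosolic counterpart Yars.

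Mars2, for methionine, stood at 299 and 299 untreated, 197 and 224 with IFNβ for 2 h and 7 h, 695 and 382 at TCR 1 h without and with IFNβ, and 999 and 1131 at TCR 6 h without and with IFNβ. Nars2, for asparagine, stood at 977 and 1059 untreated, 698 and 588 with IFNβ for 2 h and 7 h, 1011 and 1006 at TCR 1 h without and with IFNβ, and 2737 and 3029 at TCR 6 h without and with IFNβ. In both the 6 h TCR arrays lay above all others, with log2 differences of 2.10 ± 0.29 and 1.91 ± 0.28. Rars2 (1.39 ± 0.24) and Sars2 (0.84 ± 0.27, limma adjusted p = 0.043) also rose. The Sars2 call was lost under 11 of 21 alternatives, among them the fits without each of the IFNβ 2 h, IFNβ 7 h, TCR 1 h, IFNβ with TCR 1 h and IFNβ with TCR 6 h arrays, where its difference was 0.86, 0.73, 0.85, 0.85 and 0.49; its adjusted p over all alternatives ran from 0.018 to 0.40.

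Cars2, for mitochondrial cysteine, was the single member that fell. Its signal was 2595 and 2654 untreated, 2893 and 1735 with IFNβ for 2 h and 7 h, 1609 and 1331 at TCR 1 h without and with IFNβ, and 801 and 723 at TCR 6 h without and with IFNβ. The 6 h TCR arrays were below all others and the 1 h TCR arrays stood next. Its difference at 6 h was -1.67 ± 0.29 (limma adjusted p = 0.0048), opposite to its cytosolic counterpart Cars at 2.64 ± 0.40.

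Iars2 and Pars2 had the smallest mitochondrial differences. Iars2 stood at 9936 and 9709 untreated, 8141 and 7003 with IFNβ for 2 h and 7 h, 6832 and 7730 at TCR 1 h without and with IFNβ, and 8099 and 8553 at TCR 6 h without and with IFNβ. Pars2 stood at 1050 and 966 untreated, 851 and 1057 with IFNβ for 2 h and 7 h, 477 and 669 at TCR 1 h without and with IFNβ, and 811 and 1185 at TCR 6 h without and with IFNβ. The conditions overlapped in both genes, with differences of 0.00 ± 0.25 and 0.07 ± 0.27. The remaining mitochondrial genes not called were Aars2 (0.69 ± 0.24), Tars2 (0.62 ± 0.26), Wars2 (0.48 ± 0.24), Ears2 (0.38 ± 0.34), Fars2 (-0.30 ± 0.24) and Lars2 (-1.31 ± 0.98).

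Signal on both 6 h TCR arrays exceeded that on all 6 other arrays for 19 of 20 cytosolic genes, every one except Qars, and for 7 of 14 mitochondrial genes. It was below all 6 others for 0 cytosolic and 2 mitochondrial genes, Cars2 and Fars2. Over all 19582 genes with a value on every array the shares were 28.8% above and 24.3% below.

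**Figure D2:**
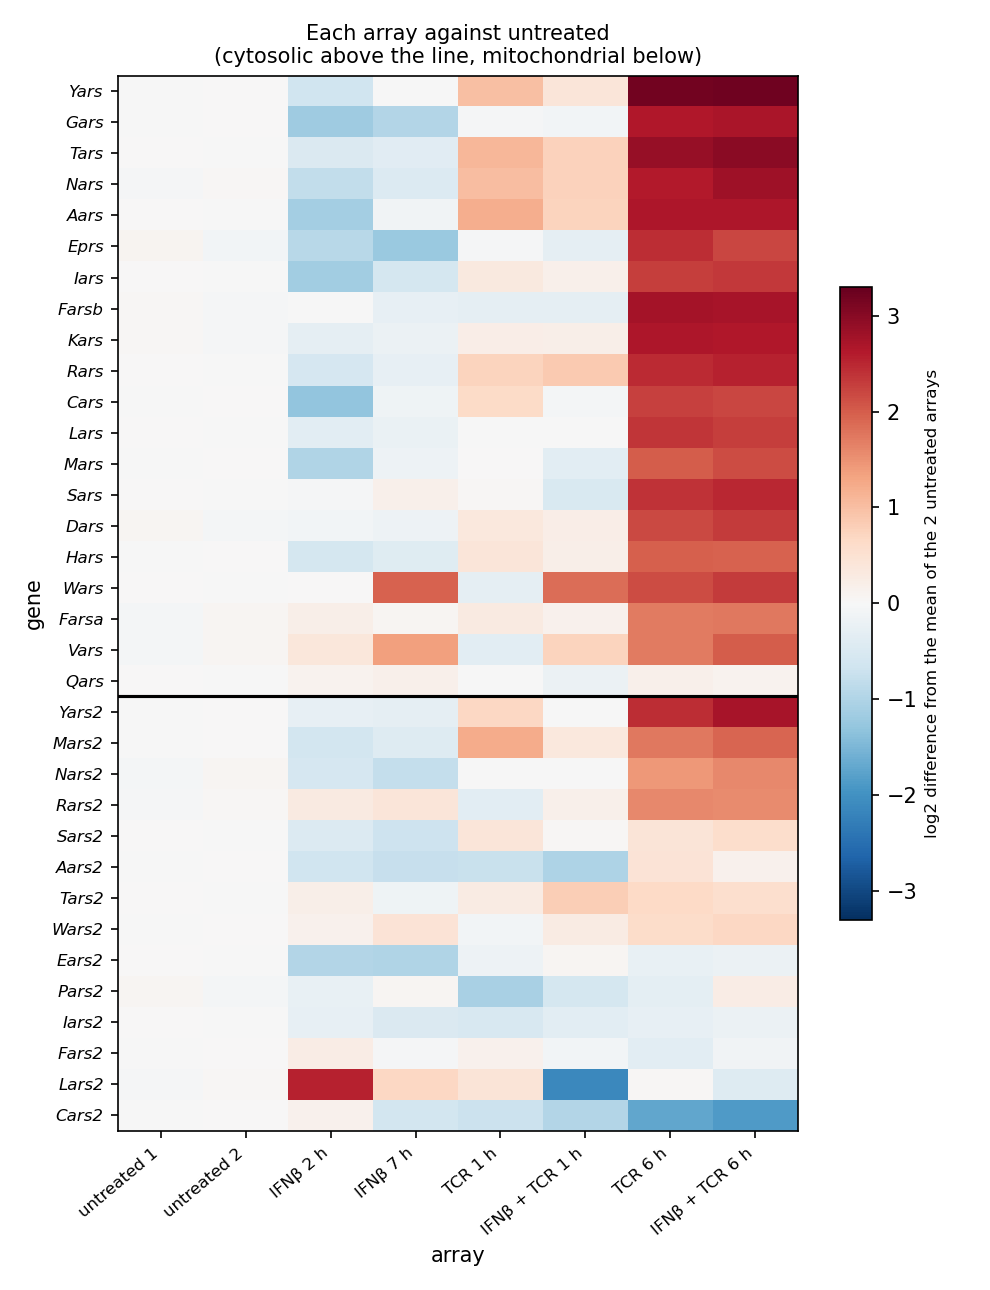
Heat map of the log2 difference of each array (columns) from the mean of the 2 untreated arrays, for the 34 genes (rows), cytosolic above the line and mitochondrial below it, each ordered by its fitted 6 h TCR difference. The columns for TCR 6 h are red in nearly every cytosolic row, Wars and Vars are also red with IFNβ for 7 h, and Lars2 stands apart with 2.54 at IFNβ 2 h and -2.13 at IFNβ with TCR 1 h.

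Both 6 h TCR arrays were on slide 2. Fitted on the arrays of slide 2 alone, 17 cytosolic genes were called higher, with a median of 2.53, and 4 mitochondrial genes were called higher and 1 lower, with a median of 0.54. With slide as a block the counts were 18, 4 and 1. Vars lost its call under 7 of 21 alternatives, including slide 2 alone (1.15, adjusted p = 0.087) and the fits without the IFNβ 2 h, TCR 6 h and IFNβ with TCR 6 h arrays (1.18, 1.10 and 1.78), with adjusted p from 0.0073 to 0.12 over all. The other 22 called members kept their call under each of the 21 alternatives fitted for TCR 6 h.

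At 1 h of TCR stimulation no synthetase gene was called, while 9 of the 34 had an unadjusted p under 0.05. Of all 19916 genes 2.48% were called higher and 1.68% lower, and 4658 had an unadjusted p under 0.05. The largest cytosolic differences were those of Aars (1.32 ± 0.36, limma adjusted p = 0.098), Nars (1.27 ± 0.28, adjusted p = 0.065), Tars (1.18 ± 0.24, adjusted p = 0.054) and Rars (1.05 ± 0.25, adjusted p = 0.076). The cytosolic median was 0.40 and the mitochondrial median -0.05, beside -0.05 over all genes. Mars2 (1.06 ± 0.29) had the largest mitochondrial value above 0, and Lars2 (-1.98 ± 0.98), Pars2 (-0.73 ± 0.27) and Cars2 (-0.73 ± 0.29) the largest below it. The adjusted p of Tars ran from 0.015 to 0.21 over 20 alternatives and was under 0.05 in 5 of them, those of Nars (0.022 to 0.26), Rars (0.027 to 0.33) and Aars (0.043 to 0.33) in 3, 4 and 5.

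Between 1 h and 6 h of TCR stimulation 18 cytosolic genes rose, all of the 20 except Qars and Wars, with 4 mitochondrial genes (Yars2, Rars2, Nars2 and Aars2), and no member fell. Of all 19914 genes 16.3% were called higher and 15.4% lower. Farsb had the largest step, 3.02 ± 0.25 on the log2 scale. Its signal of 2389 and 2385 on the 1 h arrays lay somewhat below the untreated level of 3011 and 2852. Tars, already at 1.18 against no TCR at 1 h, gained a further 2.00 ± 0.26. Each time point lay on its own slide. With slide as a block, which compares the times through the other arrays of each slide, 12 cytosolic and 2 mitochondrial genes were called.

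IFNβ was tested across all arrays that received it, and no synthetase gene was called, with 1 of 34 at an unadjusted p under 0.05 (Vars). Of all 19919 genes 0.0502% were called higher and 0% lower in this comparison, where 1706 genes had an unadjusted p under 0.05. The interferon-induced genes Isg15, Irf7 and Ifit1 themselves, at 5.51, 4.17 and 6.55 on the log2 scale, had limma adjusted p-values of 0.051, 0.059 and 0.083. Of the 34 members 26 had a difference below 0. The medians were -0.18 for cytosolic and -0.22 for mitochondrial genes, beside -0.01 over all genes. Without 1 array at a time the cytosolic median ran from -0.281 (without either 6 h TCR array) to -0.110 (without the IFNβ 2 h array). The mitochondrial median ran from -0.236 to -0.114, and was -0.114 without the IFNβ 7 h array and -0.115 without either 1 h TCR array.

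Wars had the largest IFNβ difference of the members, 1.08 ± 0.55 (limma adjusted p = 0.66). Its probe lies at chr12:110098448-110098507 (mm9). The scaled signal was 3616 and 3534 on the untreated arrays, 3598 with IFNβ for 2 h, 13658 with IFNβ for 7 h, 2900 with TCR for 1 h, 12830 with IFNβ and TCR for 1 h, 16012 with TCR for 6 h and 17698 with IFNβ and TCR for 6 h. The arrays fell into a low set (untreated, IFNβ 2 h and TCR 1 h) and a high set (IFNβ 7 h, IFNβ with TCR 1 h and both 6 h TCR arrays), with no value between. Its difference at TCR 6 h was 1.77 ± 0.66 (limma adjusted p = 0.072), with a larger error than that of any other cytosolic gene.

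The additive model could not describe this pattern with a single IFNβ difference, since the IFNβ arrays stood 0.01, 1.93, 2.15 and 0.14 on the log2 scale above their counterparts without IFNβ, in the order IFNβ 2 h, IFNβ 7 h, with TCR 1 h and with TCR 6 h. Tests of whether the IFNβ difference changed with TCR stimulation called no member and 0% of all genes, at 1 h (19819 genes, 1514 with an unadjusted p under 0.05) and at 6 h (19866 genes, 1638 with an unadjusted p under 0.05). Of the members Lars2 alone had an unadjusted p under 0.05, at 1 h. These limma tests rest on 1 residual degree of freedom. For Wars the change was 1.17 ± 1.35 with TCR 1 h and -0.83 ± 1.35 with TCR 6 h (limma adjusted p = 0.82 and 0.93).

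A second Wars probe had the same arrays in its low and high sets, from 538 and 579 untreated and 674 with IFNβ for 2 h to 3380 with IFNβ for 7 h and 3864 with IFNβ and TCR for 6 h. If the pair of 1 h TCR arrays is named as in the scanner files, the array at 12830 becomes the one without IFNβ, and the Wars IFNβ difference turns to -0.21 ± 0.73 (limma adjusted p = 1.0). Without that pair of arrays it was 0.62 ± 0.64. With the scanner files' naming the change of the Wars IFNβ difference with TCR 1 h was -3.12 ± 1.35, against 1.17 ± 1.35. The value table's naming was favoured by antiviral genes, so the contrast within this pair is not independent evidence on IFNβ. The step between IFNβ 2 h and 7 h involves neither of these arrays, but those 2 arrays lie on different slides.

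Vars, for valine, had a related order of arrays. Its signal was 3335 and 3606 untreated, 4496 with IFNβ for 2 h, 8839 with IFNβ for 7 h, 2744 with TCR for 1 h, 5780 with IFNβ and TCR for 1 h, 11399 with TCR for 6 h and 13816 with IFNβ and TCR for 6 h. Each IFNβ array was above its counterpart without IFNβ, and the IFNβ difference was 0.75 ± 0.31 (limma adjusted p = 0.58; 0.24 to 1.0 over the alternatives). With the scanner files' naming of the 1 h TCR pair it was 0.11 ± 0.45.

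Wars2, the mitochondrial tryptophan enzyme, varied much less. Its signal was 484 and 486 untreated, 535 and 663 with IFNβ for 2 h and 7 h, 453 and 588 at TCR 1 h without and with IFNβ, and 733 and 774 at TCR 6 h without and with IFNβ. The IFNβ arrays were each the higher of their pair, with an IFNβ difference of 0.26 ± 0.20 (limma adjusted p = 0.76). With the scanner files' naming of the 1 h TCR pair the difference was 0.03 ± 0.22, and the IFNβ array of that pair was the lower.

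**Figure D3:**
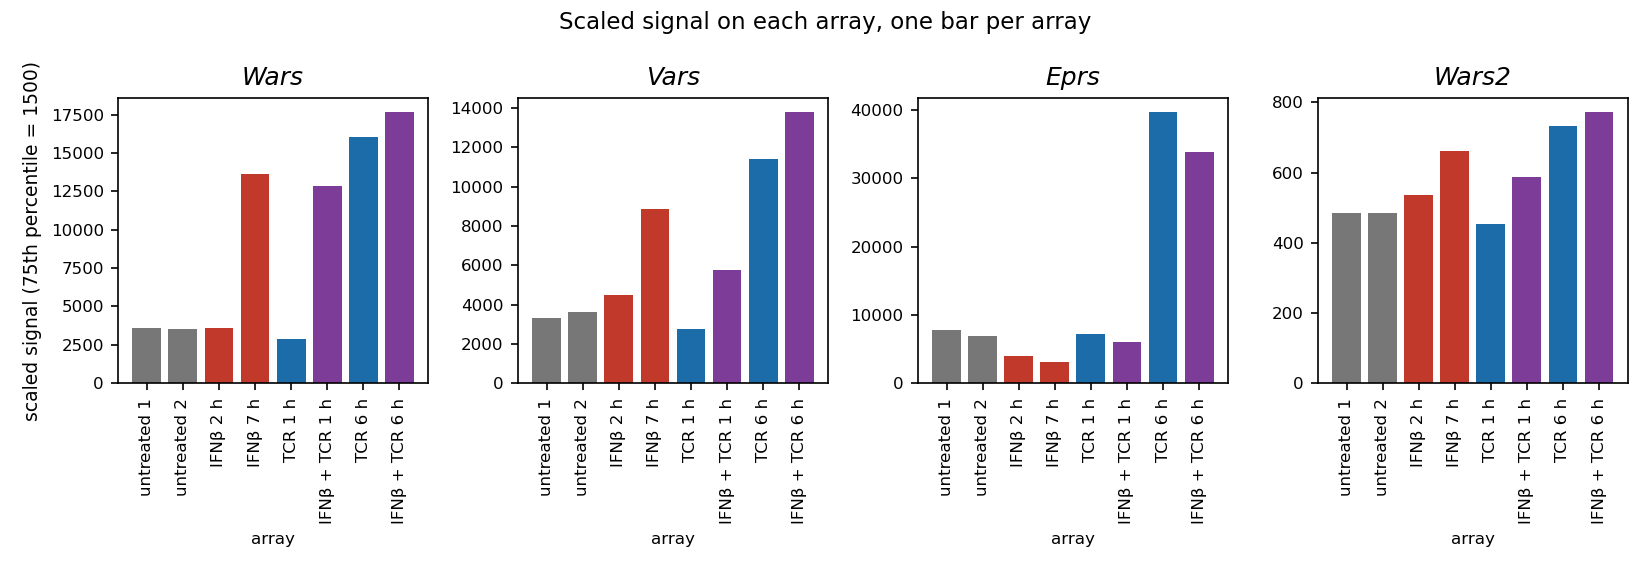
Scaled signal (vertical axes from 0, 75th percentile of each array at 1500) of Wars, Vars, Eprs and Wars2, with 1 bar per array: grey untreated, red IFNβ alone, blue TCR alone, purple IFNβ with TCR. Wars is at 3598 with IFNβ for 2 h and 13658 with IFNβ for 7 h, whereas Eprs is below its untreated level on both of those arrays.

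Most other cytosolic genes were lower on the arrays with IFNβ alone, each of which is a single array without a test. With IFNβ for 2 h, 4 of 20 cytosolic genes were lower than untreated by a factor of at least 2 (Cars -1.31, Gars -1.16, Iars -1.16 and Aars -1.13 on the log2 scale) and 0 were higher by that much, beside 5.28% of all genes lower and 10% higher. The cytosolic median on that array was -0.52, and 4 of the 20 were above 0, while the median over all genes was 0.06. With IFNβ for 7 h, Eprs (-1.23) was lower and Wars (1.93) and Vars (1.35) were higher by a factor of at least 2, beside 7.15% of all genes lower and 10.7% higher, and the cytosolic median was -0.17. Aars stood at -0.11 and Cars at -0.15 on that array. Gars at -0.96 and Eprs remained low at 7 h. The summed B cell, NK cell and erythroid markers given above were highest on these same 2 arrays, as was the sum of the T cell and CD8 markers (798960 and 819200, against 589620 and 590730 untreated). Their part in these differences was not tested.

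With 1 h of TCR stimulation, 2 of 20 cytosolic genes, Wars and Vars, were higher with IFNβ than without by a factor of at least 2. Lars2, 1 of 14 mitochondrial genes, was lower by that much, beside 10.1% of all genes higher and 5.69% lower. Each side is a single array without a test. With the scanner files' naming of this pair all these directions are reversed. With 6 h of TCR stimulation 0 of 34 members differed by that much in either direction, beside 2.33% of all genes higher and 3.32% lower. The cytosolic differences between these 2 arrays ran from -0.24 for Eprs to 0.28 for Vars.

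Lars2, for mitochondrial leucine, had the widest range of any member. Its 1 probe, at chr9:123371116-123371175 (mm9), read 32100 and 33548 untreated, 190250 with IFNβ for 2 h, 53117 with IFNβ for 7 h, 43686 with TCR for 1 h, 7493 with IFNβ and TCR for 1 h, 33896 with TCR for 6 h and 24320 with IFNβ and TCR for 6 h. The extremes were the IFNβ 2 h array and the array of IFNβ with TCR 1 h. No comparison called it, and its SE at TCR 6 h was 0.98. After these values had been seen, the array's probes for 18S ribosomal RNA (Rn18s) were looked up. One read 5899 and 5814 untreated, 26514 and 8034 with IFNβ for 2 h and 7 h, 9364 and 2190 at TCR 1 h without and with IFNβ, and 5585 and 3483 at TCR 6 h without and with IFNβ, with its highest and lowest values on the same arrays as Lars2. The other ranged from 10308 with IFNβ for 7 h to 40952 with IFNβ for 2 h. The part of ribosomal RNA in the Lars2 readings was not tested. Without Lars2 the mitochondrial median at TCR 6 h was 0.62, an alternative chosen after seeing the data.

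**Figure D4:**
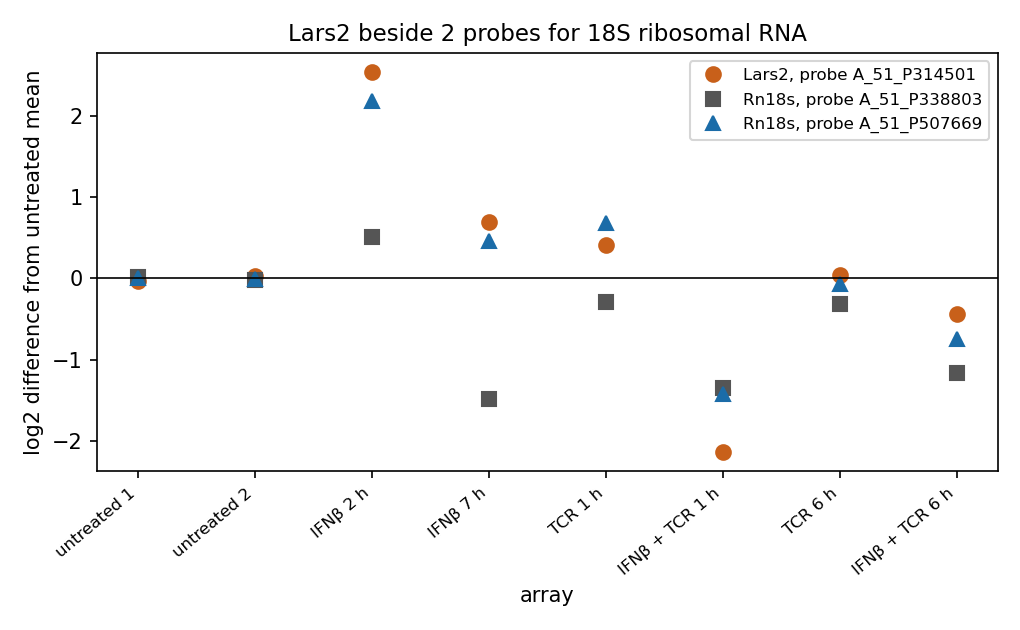
Log2 difference from the mean of the untreated arrays (vertical axis) for the Lars2 probe and both 18S ribosomal RNA probes on each of the 8 arrays (horizontal axis), 1 point per probe and array. The Lars2 probe and Rn18s probe A_51_P507669 are at 2.54 and 2.18 with IFNβ for 2 h and at -2.13 and -1.42 with IFNβ and TCR for 1 h.

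Of synthetase genes listed apart from the 34, Hars2, Tarsl2 and Vars2 had log2 differences of -0.07, 0.34 and 0.11 at TCR 6 h and were not called. Partners of the synthetases in the cytosolic complex and in editing were higher: 5 of 6 rose at TCR 6 h, with a median of 1.31, led by Eef1e1 (4.29) and Aimp2 (3.51), which are scaffold proteins of the multi-tRNA synthetase complex. Aarsd1, an editing factor for mischarged alanine tRNA, rose by 1.36. Over all genes 22.2% were called higher and 22.6% lower at TCR 6 h, the shares to set beside this list and those below.

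Upstream of the synthetases, genes that make and export tRNA were split. Of 20, 12 rose at TCR 6 h and 1 fell, with a median of 1.09, beside 22.2% of all genes called higher and 22.6% lower. Those that rose included the RNA polymerase III subunit Polr3d (3.65) and the tRNA exporter Xpot (3.59), while Maf1, a repressor of RNA polymerase III, fell by 1.68. Of 23 tRNA modification genes 20 rose and none fell, with a median of 1.82. The largest were Trmt61a (4.82), a methyltransferase subunit, Mettl1 (4.44), which makes 7-methylguanosine in tRNA, and Pus7 (4.01), a pseudouridine synthase.

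Downstream of charging, 5 of 9 elongation factor genes rose, with a median of 1.25, beside 22.2% of all genes called higher at TCR 6 h. The 3 largest, Tsfm (2.09), Gfm1 (2.08) and Tufm (1.93), encode mitochondrial elongation factors, and the others that rose were the cytosolic Eef1d (1.51) and Eef1g (1.25). The mitochondrial Gfm2 (0.62) and the cytosolic Eef1b2 (0.55) and Eef2 (0.44) were not called. Eef1a1, the cytosolic factor that carries charged tRNA to the ribosome, stood at 0.35 ± 0.25 and was not called either. Of 8 genes that convert charged tRNA or recycle it, 4 rose and 0 fell, with a median of 1.14. Those that rose included Gatc (2.12), a subunit of the mitochondrial enzyme that makes glutaminyl-tRNA, and Ptrh2 (1.78), a peptidyl-tRNA hydrolase.

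The list of genes tied to the response to uncharged tRNA, in which the kinase GCN2 (Eif2ak4) acts through ATF4, had the highest median of the lists. It was 3.60 at TCR 6 h, with 14 of 15 genes higher and none lower. Eif2ak4 itself (0.75) was the gene not called. Neither tRNA charging nor GCN2 activity was measured. Chac1 (6.47), Asns (4.92), the asparagine synthetase gene, and the amino acid transporter Slc7a5 (4.74) had the largest differences. At TCR 1 h 6 of the 15 were already called higher, among them Chac1 (2.87), Slc7a1 (2.18) and Atf4 (2.06, limma adjusted p = 0.033). The list median was then 1.35, and no synthetase was called. Over all genes 22.2% were called higher at TCR 6 h and 2.48% at TCR 1 h. Myc and Ifng, reference genes for TCR stimulation, were at 4.78 and 8.54 at 1 h. No gene of these 7 lists was called by limma for IFNβ, and 4 of their 85 genes had an unadjusted p under 0.05.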

How the data were processed

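Scanner files of 8 arrays hold processed signal as linear intensity, which the authors had background-subtracted and detrended in Agilent's Feature Extraction software (version 10.7.3.1 per the file headers, 9.5.3.1 per the submitters' processing notes). Signal was scaled to each array's 75th percentile over non-control spots and taken to log2. Outlier spots (100 to 246 per array) were dropped, repeated spots averaged, probes well above background on at least 2 arrays kept (28708 probes), and the brightest probe of a gene used (19919 genes). The deposited value table, also intensity, was each array's signal times 1 factor. Of its columns 6 matched their own array, and those of TCR 1 h and IFNβ with TCR 1 h matched each other's. Names were updated by RefSeq accession for 26690 of 41174 probes.

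The untreated arrays differed at 152 repeated probes by an SD of 0.0687, where spot noise alone predicts 0.0541, and entered as 1 averaged sample. limma 3.58.1 in R 4.3.3 fitted an additive model with 3 residual degrees of freedom and an interaction model with 1, with Benjamini-Hochberg adjustment over all genes, and was tested on simulated data. The members and lists were chosen with earlier results of these data known. Named with full values were Wars, Wars2, up to 6 cytosolic and 4 mitochondrial members with the largest called differences per comparison, and the 2 smallest of each kind at TCR 6 h. Others have their difference alone, and each list up to 3 of its largest; some items are not reported here. Further members are named beside counts. Alternatives covered normalization, filter, probe choice, slide, array naming, left-out arrays and an intensity trend in limma's variance prior.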

Additional observations from a re-analysis of the deposited data

How the results depend on the processing

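At TCR 6 h the cytosolic count called higher stayed between 17 and 19 of 20 and the mitochondrial count called lower at 1 under all alternatives. The mitochondrial count called higher ran from 4 to 8, with 8 when arrays were scaled to their median, where the median of all genes moved from 0.05 to 0.38 and 63.1% of calls over all genes were higher, against 49.5% in the report. With that scaling the cytosolic and mitochondrial medians were 3.04 and 0.89. The cytosolic median was 2.04 with quantile normalization and 1.99 with normexp and quantile. Without 1 array at a time it ran from 2.50 to 2.84, the lowest without IFNβ with TCR 6 h. Qars turned negative at -0.62 with quantile, -0.54 with normexp and quantile and -0.13 with the mean of all kept probes. Wars was called higher at TCR 6 h under 5 of 21 alternatives (adjusted p 0.030 to 0.31 over all).

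At TCR 1 h the members called were 5 with the untreated arrays as separate samples, 4 each with normexp and quantile, with probes well above background on all 8 arrays and with the variance trend, and 1 each with the value table and the mean of kept probes; with normexp and quantile 46.8% of calls over all genes were higher, against 59.5%. The cytosolic median was 0.28 to 0.60 without 1 array at a time, with 0.60 without the TCR 1 h array, and the mitochondrial median was -0.20 with the mean of kept probes. Between 6 h and 1 h the mitochondrial count called higher was 7 with normexp and quantile, 2 with slide as a block, and 2 to 4 without 1 array at a time, with 2 without each of TCR 1 h, IFNβ with TCR 1 h and IFNβ with TCR 6 h. The cytosolic count was 12 to 18 without 1 array at a time.

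No member was called for IFNβ under any alternative. With the scanner files' naming of the 1 h TCR pair Wars was at -0.21 for IFNβ and the mitochondrial median at -0.036; that median was -0.057 on slide 1 alone and -0.060 with the mean of kept probes. No paired analysis was possible because the groups compared share fewer than 2 replicate numbers. The causes of these changes were not tested.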

Other observations

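Of the 34 genes, 20 had more than 1 kept probe, and for 17 of these all probes had the same sign on the 6 h TCR arrays against untreated. The exceptions were Ears2, Qars and Wars2. Some second probes were designed on cDNA clones with AK accessions, of which 9 probes for 8 genes were well above background on all arrays; their place relative to exons was not determined. They were looked at after their values had been seen.

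By the mean of the 1 h TCR arrays each of these 9 probes lay further from untreated than the probe used for its gene, in the same direction. Single arrays could differ. The Ears2 clone probe read 44.1 and 64.6 at TCR 1 h without and with IFNβ, and 61.9 and 54.8 untreated. That of Dars read 116 and 246 at TCR 1 h, and 95.5 and 98.6 untreated. For Iars the clone probe read 147 and 123 untreated, 449 and 874 on the 1 h TCR arrays without and with IFNβ, and 577 and 324 on the 6 h TCR arrays without and with IFNβ. Its mean log2 difference was 2.22 at 1 h and 1.69 at 6 h, where the probe used had 0.24 and 2.32. For Aars the clone probe had 2.62 at 1 h and 2.28 at 6 h, beside 0.97 and 2.68 for the probe used. For Hars it had 1.01 and 0.74 beside 0.30 and 1.97, and for Dars 0.80 and 0.31 beside 0.28 and 2.24. For Yars2 it had 0.39 and 1.47 beside 0.33 and 2.58.

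The clone probes of Iars2 lay below untreated, at -1.09 and -1.59 at 1 h beside -0.43 for the probe used, as did that of Qars, at -0.46 beside -0.11. That of Ears2 was at -0.13 beside -0.06. At 6 h 8 of the 9 clone probes read a lower difference than the probe used, Ears2 being the exception. These are means of 2 arrays without a test.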
